A study of Gallus gallus with 26 samples.

Results

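Embryonic day 19 (E19) of the complexus muscle was set against the days on either side of it, E17 and E20, to find what was particular to E19 and not a point on the way between them. The libraries compared were chosen by their labelled day: 5 of E19, 6 of E17 and 5 of E20, which makes 16 of the 26 libraries of the series. The muscle came from broiler chickens (Gallus gallus), which are bred for meat, and the labels give every library the same tissue and a single batch. By their labels the groups differ only in day, with E15 (6 libraries) and E21 (4 libraries) outside the comparison. E20 and E21 are labelled by embryonic day, while the series design speaks of hatch and chick placement. Where E20 stands relative to hatching was not determined here. The labels give neither sex nor the bird behind each library. Nothing says that the libraries came from separate birds, so p-values measure the spread between these samples, which may be technical.

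The complexus is a paired muscle on the back of the neck, often called the hatching muscle. It lifts the head against the shell during pipping and hatching, enlarges in the days before that and shrinks afterwards. Skeletal muscle of this age is also turning from a growing into a working tissue, and it draws on stored glycogen and fat while the chick changes from the chorioallantois to its lungs. RNA counts of whole tissue mix fibres, precursor cells, connective tissue, vessels and blood, and fewer cells of a type and less RNA per cell cannot be told apart in them.

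Genes are listed by Ensembl identifier in the deposited table, 8758 in all, and none is paired with a gene name. None of the identifiers matched the 25635 genes of the RefSeq table available, so muscle markers, gene families and pathways are not analysed here. Library totals lay between 580768 and 1106816 counts at E19, against 1041633 to 2040435 at E17 and 632074 to 1373614 at E20. Between 7329 and 7901 of the listed genes had a count in an E19 library, against 8050 to 8466 at E17 and 7618 to 8238 at E20. The part of depth in the differences below was not tested.

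E19 stood closer to E17 than to E20. It stood farther off the straight line between them than the E17 libraries did, although E17 and E20 themselves set that line. Each library was placed on the line from the E17 mean to the E20 mean, over the log2 CPM (counts scaled to a common library total) of all genes tested, with 0 at the E17 mean and 1 at the E20 mean. The 5 E19 libraries lay at 0.41, 0.38, 0.34, 0.38 and 0.34 of the way, a mean of 0.37 ± 0.03 (SD, n = 5). Libraries of the end points, each left out of its own mean, lay between 0.02 and 0.07 at E17 and between 0.87 and 0.98 at E20. Along the line, E19 overlapped with neither neighbour. By labelled day E19 is nearer to E20 than to E17, so an even course in time would not put it at the midpoint.

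Off the line, the root mean square distance per gene was 0.67 ± 0.04 log2 units at E19 (SD, n = 5), against 0.44 ± 0.03 at E17 (n = 6) and 0.55 ± 0.07 at E20 (n = 5). The lowest E19 library had 0.62, the highest E17 library 0.47 and the highest E20 library 0.62. The libraries of E19 were thus all farther off than those of E17, while the lowest of E19 met the highest of E20 at this rounding. E15 and E21 lay beyond the ends or at them, at -0.05 ± 0.01 (n = 6) and 1.00 ± 0.03 (n = 4) of the way. Off the line they stood at 0.57 ± 0.05 (n = 6) and 0.64 ± 0.05 (n = 4), and E21, with 0.60 to 0.71, overlapped with E19, so a distance of this size was not particular to E19. E17 and E20 set the line, so their libraries lie off it by their own spread, and another day can be expected to lie farther off. Sampling noise adds to this distance in shallow libraries, and no test was made, because genes are not replicates. The mean of the E19 libraries, in which such noise is averaged, lay 0.44 log2 units off the line, on a span of 0.88 from E17 to E20.

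**Figure D1:**
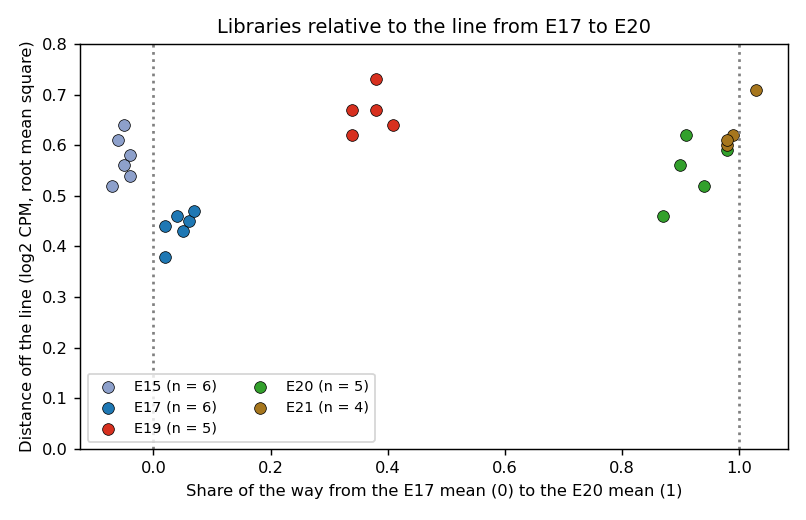
Each point is 1 library, with its share of the way from the E17 mean to the E20 mean on the horizontal axis and its distance off that line (root mean square over genes, log2 CPM) on the vertical axis. The 5 E19 libraries form a group at 0.34 to 0.41 of the way and 0.62 to 0.73 log2 units off the line.

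The counts at E19 were concentrated in fewer genes than on either neighbouring day. The number of genes that held 50% of the counts of a library was 37, 41, 44, 42 and 36 in the 5 E19 libraries, a mean of 40 ± 3.39 (SD, n = 5). At E17 that number was 57.7 ± 6.77 (n = 6, from 51 to 70), and at E20 it was 72.4 ± 4.39 (n = 5, from 68 to 79). No E19 library overlapped with any library of E17 or E20. The difference was -17.7 genes from E17 (exact two-sided permutation p = 0.00433) and -32.4 genes from E20 (exact p = 0.00794), each the smallest p these group sizes allow and 0.00794 after Benjamini-Hochberg adjustment over the 2 tests. Concentration of this kind bears on every other gene, because a library gives the remaining genes fewer of its counts. The factors of the trimmed mean of M values (TMM), which offset it, lay between 0.749 and 0.837 at E19, against 0.897 to 1.02 at E17 and 0.97 to 1.02 at E20.

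With TMM factors, 873 of 5901 genes tested differed between E19 and the mean of E17 and E20. At an adjusted p under 0.05 in edgeR, with Benjamini-Hochberg adjustment over the genes tested, E19 was higher in 529 (8.96%) and lower in 344 (5.83%). The difference was 2-fold or more in 106 higher and 103 lower genes. In 440 of the 529 higher genes all 5 E19 libraries lay above the midpoint of the neighbouring days. In 320 of the 344 lower genes all 5 lay below it. These counts follow in large part from the choice of the genes and are no test of it. Of the 529 higher genes, 6 passed the filter on low counts only through the E19 libraries, as did 43 of all 5901 tested. That balance depended on the scaling: with library totals and no factors, 171 genes (2.9%) were higher and 1360 (23%) lower, and the median log2 difference over all genes tested was -0.31, against -0.02 with TMM factors. Of the genes called with TMM factors, 171 of the 529 higher ones and all 344 lower ones were also called in the same direction with library totals. Library totals lower E19 against its neighbours in every gene, so lower calls kept under them are no added support.

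**Figure D2:**
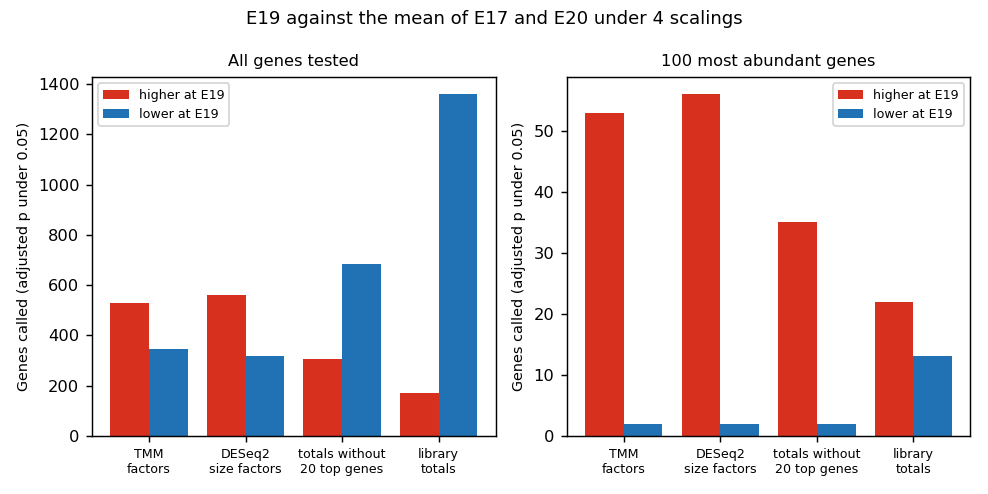
Bars give the number of genes called higher (red) and lower (blue) at E19 than the mean of E17 and E20 (adjusted p under 0.05) under 4 scalings, for all 5901 genes tested on the left and for the 100 most abundant on the right. Over all genes the balance turns round between TMM factors (529 higher, 344 lower) and library totals (171 higher, 1360 lower), whereas among the 100 most abundant genes more are higher than lower under each of the 4.

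Abundant genes made up much of what was higher at E19. Genes were ranked by mean normalised CPM over all 26 libraries, a level that is not corrected for transcript length. The E19 libraries are among them, so a high level at E19 itself raises a gene's rank. Of the 100 highest, 53 were higher and 2 lower at E19 than the mean of E17 and E20 with TMM factors, and their median log2 difference was 0.29, against -0.02 over all genes tested. With library totals 22 were higher and 13 lower, and the median was 0, against -0.31 over all genes. In the 25% of genes with the lowest levels (2.33 to 11.9 CPM), 37 of 1475 were higher and 39 lower with TMM factors, and in the 25% with the highest (70.8 CPM and above) 348 of 1476 were higher and 127 lower. Counts also make calls easier in abundant genes in both directions.

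Higher calls and lower calls were built differently with TMM factors. The difference from the mean of the neighbours can come from both sides or from 1 side alone. Among the 529 higher genes the median log2 difference was 0.51 for E19 minus E17 and 0.67 for E19 minus E20. These medians do not show that both sides contributed in each gene. Tested alone, 293 of the 529 were higher than E17 and 373 higher than E20 (edgeR, adjusted p under 0.05). Among the 344 lower genes the medians were -0.42 for E19 minus E17 and -1.13 for E19 minus E20, so the E20 side was the larger by the medians. Tested alone, 108 of the 344 were lower than E17 and 288 lower than E20. With library totals as the scale the same genes had medians of 0.26 and 0.34 if higher, and of -0.67 and -1.47 if lower. Both differences share the E19 libraries. The E19 mean lay outside the range of the neighbouring means in 461 higher genes and 285 lower ones, counting signs alone. Among the 171 higher and 1360 lower genes called with library totals these counts were 129 and 1251. Their balance thus turned round with the scaling, as that of the calls did. With TMM factors, 53 of the 59 lower genes with E19 inside that range were rising towards E20. Of the 68 higher genes inside it, 43 were falling towards E20 and 25 rising.

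**Figure D3:**
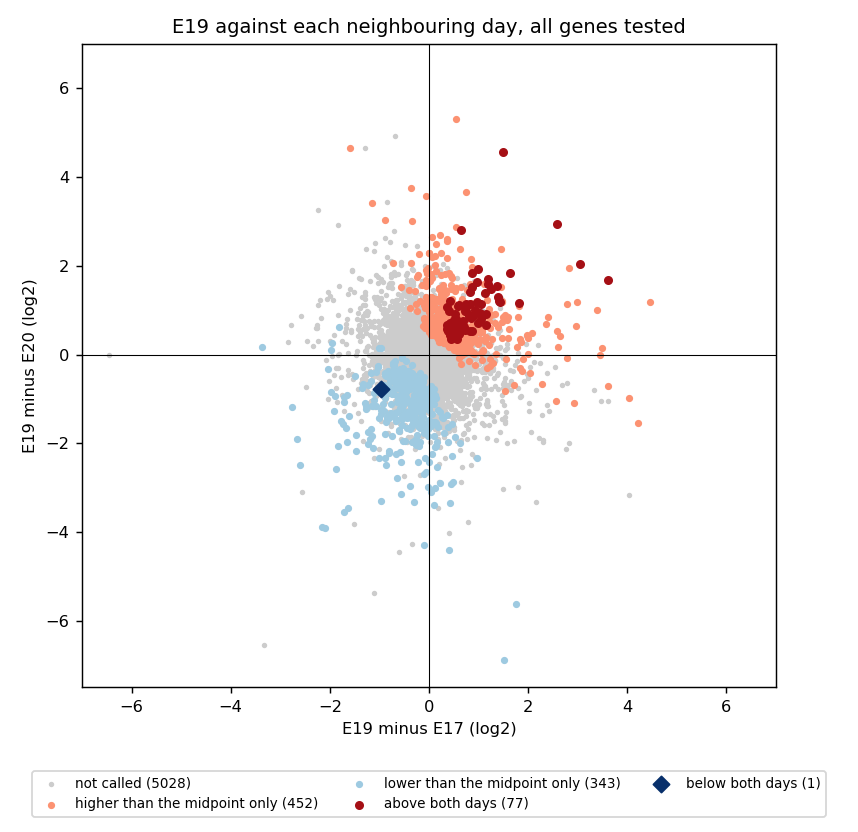
Each point is 1 of 5901 genes tested, with the log2 difference E19 minus E17 on the horizontal axis and E19 minus E20 on the vertical axis, both scaled with TMM factors. Genes above both days (77, dark red) sit in the upper right quadrant and the 1 gene below both (dark blue diamond) in the lower left one, while most lower calls (light blue) reach far down the E20 axis and little along the E17 axis.

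The days on either side can also be tested one by one. A gene was taken as above both when E19 was higher than E17 and higher than E20, by the larger of the 2 one-sided p-values of edgeR after Benjamini-Hochberg adjustment across the genes tested. With TMM factors, 77 genes (1.3% of those tested) stood above both days and 1 gene (0.0169%) stood below both. With library totals the same test gave 4 genes above and 209 below. Peaks thus outnumbered dips under TMM factors and DESeq2 size factors (88 above, 1 below) and not under totals. Both kinds of factor put the median log2 difference over all genes tested near the same value (-0.02 and 0). Their agreement is therefore no separate support. Totals without the 20 genes with the most counts gave 23 above and 26 below. At an unadjusted p under 0.05, 375 genes were above and 253 below with TMM factors, and most of these did not pass the adjustment. The 2 genes just inside the threshold for peaks had adjusted p-values of 0.0416 and 0.0439, and the 2 just outside it 0.0532.

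The 77 peak genes stood out in every E19 library. Their mean level, relative to the midpoint of the neighbouring days, was 0.92, 0.99, 0.84, 0.84 and 0.88 log2 units in the 5 E19 libraries, against -0.01 to 0.16 at E17 and -0.27 to 0.03 at E20. These values describe the choice of the genes and are no test of it. The median peak was 0.83 log2 units over the mean of the neighbours, with a range from 0.40 to 3.03, and 15 genes were at least 2-fold over each of them. In 50 of the 77, every E19 library was higher than every library of E17 and E20; over all genes tested that was so for 65 genes (1.1%), and the reverse for 17 (0.288%).

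Peak genes took a large part of all counts. They held 37% ± 0.934 of the counts at E19 (SD, n = 5), against 31% ± 1.35 at E17 (n = 6) and 28.6% ± 0.846 at E20 (n = 5). Libraries ranged from 35.6% to 37.8% at E19, from 29.4% to 33% at E17 and from 27.2% to 29.2% at E20, without overlap between E19 and the others. Such shares need no scaling factor, but the genes were chosen as peaks in these libraries, so no test was made. Among the 77 were 9 of the 20 most abundant genes and 18 of the 100 most abundant, whereas the 4 peaks called with library totals held 1 of each. The 25% of genes with the lowest levels held 3 of the 77.

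**Figure D4:**
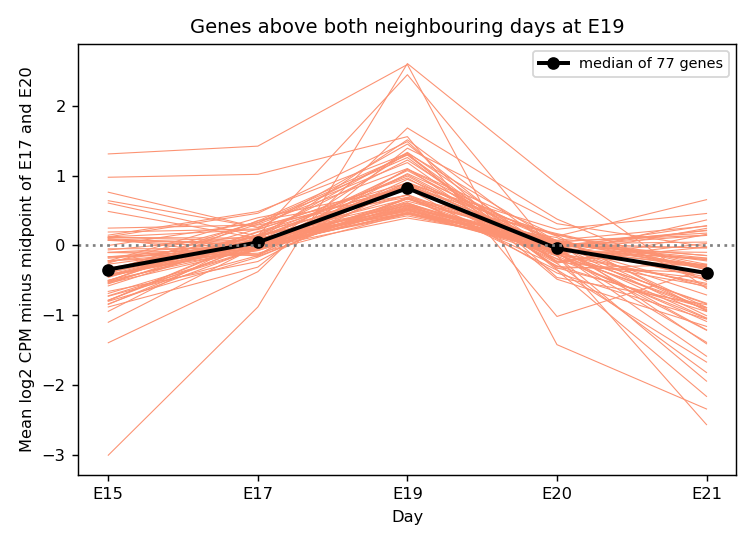
Thin lines give the day means of log2 CPM of each of the 77 genes above both neighbouring days at E19, with TMM factors, relative to the midpoint of E17 and E20, and the thick line gives their median. The genes were chosen for standing above E17 and E20 at E19, while the levels at E15 and E21 did not enter that difference, although their libraries shared the filter, the scaling and the spread of the fit.

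The days outside the comparison were E15 and E21. Their levels did not enter the differences that chose the peaks, but their libraries took part in the filter, the scaling and the shared spread. In a fit of the 16 libraries of E17, E19 and E20 alone, 54 genes stood above both days, 52 of them among the 77. E19 had a higher mean normalised CPM than E15 and E21, as well as the 2 days used in the choice, in each of the 77 peak genes. Over all genes tested, E19 was the highest of the 5 days in 966 of 5901. By their choice the peaks already stood above 2 of the other days, so counts over all genes are no like baseline for them. With library totals as the scale, all 77 lay above the midpoint of E17 and E20, against 1347 of all 5901 genes tested. The choice of the genes fixed this count, because the smallest peak was 0.40 log2 units over the midpoint. The change of scale moved the median over all genes only from -0.02 to -0.31. With library totals E19 was the highest of the 5 days in 57 of the 77, against 234 of the 5901. With TMM factors E21 was the lowest day for 41 of the 77, E15 for 31 and E20 for 5. Over all 5901 genes tested, E21 was the lowest day for 1565, E15 for 1302 and E20 for 996. E19 was lowest for 1196 of all genes and, by the choice, for 0 of the 77, so these counts are no like baseline either. With E21 tested against E15 in the same fit, 30 of the 77 (39%) were lower at E21 and 17 (22.1%) higher (edgeR, adjusted p under 0.05), against 28.6% lower and 27.3% higher over all genes tested. The median log2 difference of E21 from E15 was -0.17 in the peak genes and -0.03 over all genes tested. With library totals 22 of the 77 (28.6%) were lower and 26 (33.8%) higher at E21, against 22.2% lower and 35.6% higher over all genes tested, and the medians were 0.04 and 0.18. The sign of the peak genes' median thus depended on the scaling. A change of scaling factors moves this difference by nearly the same amount in every gene. The peak genes' median therefore had to stay below that of all genes, which is no added support.

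The lower genes differed from that on the same outer days. Of the 344 genes lower at E19 than the mean of its neighbours, 214 (62.2%) were higher at E21 than at E15 and 45 (13.1%) lower, beside the 27.3% and 28.6% over all genes tested. Their median log2 difference of E21 from E15 was 0.86. At E20, a day used in the choice, 201 of the 344 (58.4%) were already higher than at E17 and 29 (8.43%) lower (edgeR, adjusted p under 0.05). Over all genes tested these shares were 22.8% and 21.3%. The counts at E21 are therefore not separate from a high E20, which helped to choose these genes. In the 529 higher genes, 139 (26.3%) were higher and 205 (38.8%) lower at E21 than at E15, with a median of -0.19. The highest of the 5 day means was at E21 for 200 of the 344 lower genes, against 1617 of all 5901 genes tested. By their choice E19 was the highest day for 0 of the 344, so the count over all genes is no like baseline. The lowest day mean was at E19 for 240 of the 344, which follows in part from their choice. With library totals 232 of the 344 (67.4%) were higher and 36 (10.5%) lower at E21 than at E15, and of the 529 higher genes 193 (36.5%) were higher and 171 (32.3%) lower, beside 35.6% and 22.2% over all genes tested.

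ENSGALG00000028284.3 had the largest difference among the peaks that passed the rule for named genes. Its 5 E19 libraries had 109, 272, 63.3, 66.2 and 67.6 normalised CPM, a mean of 116 ± 89.2 (SD, n = 5). At E17 it had 10.7 to 31.2 with a median of 18.4 (n = 6), and its 5 E20 libraries had 25.7, 9.86, 13.1, 15.2 and 13.4. Every E19 library was higher than every library of E17 and E20, and replicate 2 was far above the rest.

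The log2 difference of that gene from the mean of E17 and E20 was 2.76 (SE 0.32, 6.76-fold), with an adjusted p of 0.000143 for standing above both days (edgeR). Without E19 replicate 2 the difference was 2.14. It was 2.58 (SE 0.37) over E17 and 2.93 (SE 0.43) over E20. On the outer days the level was lower still, with 1.49, 1.17, 0.806 and 2.2 CPM in the E21 libraries, against 1.33 to 23.5 with a median of 8.27 at E15 (n = 6). The E21 value rests on 9 counts in all, and the log2 difference of E21 from E15 was -2.72 (SE 0.75, adjusted p = 0.00262, edgeR).

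ENSGALG00000044333.1 showed a smaller peak at a low level. It had 16.5, 11.5, 14.1, 12.4 and 14.8 normalised CPM in the E19 libraries, from 49 counts in all. At E17 it had 1.99 to 6.78 with a median of 4.12 (n = 6, 37 counts), and in the E20 libraries 2.85, 3.29, 2.19, 7.14 and 2.97 (17 counts). The E19 libraries lay apart from both days, which the rule for named genes required. With 6 to 12 counts in each of them, their closeness to each other says little. The log2 difference from the mean of the neighbours was 1.74 (SE 0.35, 3.34-fold). The gene passed the filter on low counts only through the E19 libraries, where it is high, the only peak of the 77 to do so and 1 of 43 such genes among all tested, so its p in that fit supports nothing. Without any filter the log2 difference was 1.72 and the adjusted p for standing above both was 0.0311 (edgeR), an alternative added after the values were seen.

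In filtered fits the adjusted p was 0.353 with library totals (log2 difference 1.44) and 0.0721 without E20 replicate 3 (1.63, edgeR). Both fits used the same filter rule, so these p-values carry the same limit. The gene failed the filter without E19 replicate 1, 3, 5 or 6 and in the fit of 16 libraries, where it has no value. On the outer days the gene stood near its neighbours' level, at 3.47 ± 1.1 CPM at E21 (SD, n = 4) and 2.82 ± 2.23 at E15 (SD, n = 6). The log2 difference of E21 from E15 was 0.18 (SE 0.49, adjusted p = 0.783, edgeR), which does not show that the 2 days were alike.

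ENSGALG00000000377.5 was the only gene that stood below both days with TMM factors. It had 52.4, 59.8, 57.4, 55.9 and 37.9 normalised CPM in the E19 libraries. At E17 it had 97.5 to 118 with a median of 99.5 (n = 6), and in the E20 libraries 92.7, 82.1, 107, 85.7 and 86. Every E19 library was below every library of both days. The log2 difference from the mean of the neighbours was -0.88 (SE 0.12, a ratio of 0.545), with an adjusted p of 0.0134 for standing below both (edgeR).

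With library totals the dip of that gene was also called, with a log2 difference of -1.17. That scale lowers E19 against both days in every gene, so it could only deepen a dip and is no support for it. The call with TMM factors was not kept in every fit. Of the 16 fits with a single library left out, 13 kept it. The adjusted p for standing below both was 0.0598 in a fit of the 16 libraries of E17, E19 and E20, 0.061 without E19 replicate 1, 0.0618 without E19 replicate 6 and 0.0697 without E20 replicate 3 (edgeR). The log2 difference was between -0.93 and -0.78 when single libraries were left out. On the outer days it had 70.2 ± 15.1 CPM at E21 (SD, n = 4) and 126 ± 6.07 at E15 (SD, n = 6), a log2 difference of -0.86 (SE 0.13, adjusted p = 1.37e-06, edgeR).

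ENSGALG00000027874.2 had the most negative difference of all genes called lower, and it was chosen after its values were seen. It had 0, 6.91, 2.34, 8.28 and 11.5 normalised CPM in the E19 libraries, from 19 counts in all. At E17 it had 0.995 to 55.5 with a median of 15.2 (n = 6), and in the E20 libraries 125, 140, 73.8, 49.1 and 28.2. E19 was apart from E20 but overlapped with E17. The log2 difference was -3.89 (SE 0.78) from E20 (adjusted p = 0.000317), -2.16 (SE 0.85) from E17 (adjusted p = 0.0759) and -3.02 (SE 0.76) from their mean (adjusted p = 0.00606, all edgeR). This gene therefore counted as lower than the midpoint and not as below both days. On the outer days it had 4.71 ± 3.48 CPM at E15 (SD, n = 6) and 64.6 ± 72.4 at E21 (SD, n = 4). The log2 difference of E21 from E15 was 3.77 (SE 0.65, adjusted p = 1.14e-05, edgeR). A low level was thus not particular to E19, because E15 had it too.

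**Figure D5:**
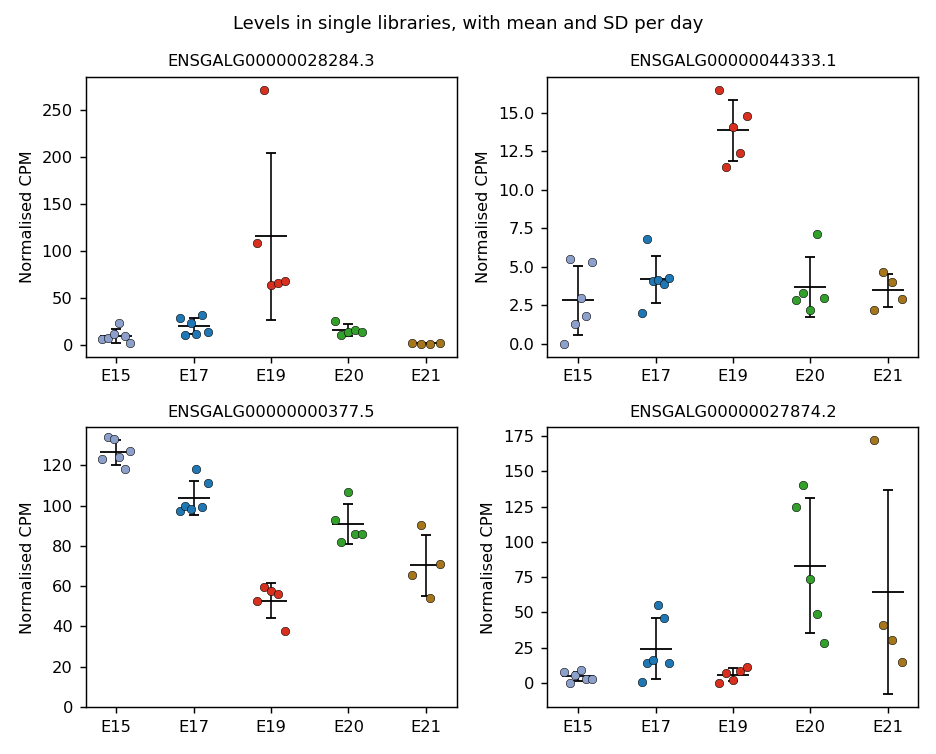
Points give normalised CPM (TMM factors) in single libraries of the 5 days for the 4 genes described, with the mean (horizontal dash) and SD (bars) of each day. The upper 2 genes are highest at E19 in all 5 libraries, the lower left gene is lowest at E19 compared with E17 and E20, and the lower right gene overlaps between E19 and E17.

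Of the 77 peaks, 4 were called above both days under each of 4 scalings: TMM factors, DESeq2 size factors, library totals, and library totals without the 20 genes with the most counts. DESeq2 size factors kept all 77, totals without the 20 genes kept 23 and library totals kept 4. Library totals alone thus set this number, and the 4 scalings are not separate checks. ENSGALG00000028284.3 was 1 of the 4 peaks. The other 3 had log2 differences between 0.85 and 2.64 from the mean of the neighbours and mean levels between 169 and 39400 normalised CPM at E19. Of these 3, 2 belonged to cluster 2 and 1 to cluster 4 of the clusters that the authors deposited.

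Those 5 clusters were made by the authors from their own calls in these libraries, so their counts describe the shape of a course and are not independent evidence of it. Over all genes tested, 8.96% were higher and 5.83% lower with TMM factors. Cluster 2 held 31 of the 77 peaks: 131 of its 171 genes tested (76.6%) were higher at E19 than the mean of the neighbours, with a median log2 difference of 0.28 from E17 and 1.15 from E20. In cluster 4, 76 of 161 genes (47.2%) were higher, with medians of 1.22 from E17 and -0.04 from E20, and 9 of them were peaks. Cluster 2 thus stood far above E20 and little above E17, and cluster 4 far above E17 and level with E20. With library totals the medians were 0.03 and 0.81 in cluster 2, and 0.97 and -0.39 in cluster 4.

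In cluster 5, 152 of 291 genes (52.2%) were lower than the mean of the neighbours, with medians of 0.07 from E17 and -1.39 from E20, so these genes stood near their E17 level at E19. With library totals the medians of cluster 5 were -0.19 and -1.73. Cluster 3 had 18 of 81 genes lower (22.2%) and 2 higher, with medians of -0.65 from E17 and -0.39 from E20, the only cluster of the 5 whose median lay below both days with TMM factors. With library totals its medians were -0.90 and -0.72, and that of cluster 5 also lay below both. Cluster 1 lay on the way between its neighbours by its medians, -0.80 from E17 and 0.69 from E20. Of its 199 genes 15 were higher (7.54%) and 13 lower (6.53%), near the 8.96% and 5.83% over all genes tested. Outside the clusters stood 37 of the 77 peaks and the 1 gene below both days, beside 4998 of the 5901 genes tested. With library totals, beside 2.9% higher and 23% lower over all genes tested, cluster 1 had 2 higher and 31 lower genes, cluster 2 had 84 and 1, cluster 3 had 1 and 33, and cluster 4 had 44 and 4. In cluster 5, 221 genes were lower.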

How the data were processed

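RNA was extracted from frozen muscle, per the labels' protocols. STAR 2.7.10a, HTSeq 2.0.2 and DESeq2 are named by the submitters' processing notes. Genome build, annotation, strand and the treatment of molecular identifiers are not stated there or in the labels, so near-identical and overlapping genes cannot be told apart. The authors deposited raw counts, per the file headers, with 1 column a library, and other columns, of which their cluster number was used. A further 26 columns of normalised counts were not used.

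Counts were fitted with edgeR 4.0.16 in R 4.3.3 over all 26 libraries, with day as the only term and TMM factors. The filter filterByExpr (minimum count 10, minimum total 15) kept 5901 genes with 99.2% of the counts, at a common biological coefficient of variation of 19.2%. The contrast was E19 minus the mean of the E17 and E20 coefficients. An SE is the absolute log2 difference divided by the square root of the F statistic. Log2 CPM used a prior count of 2. Normalised CPM are counts scaled by totals and TMM factors. In the shallowest library 0 counts allow a level of up to 5.17 CPM by its total (3 counts). This is a 95% upper bound, for counting error only. That bound leaves out the TMM factor of 0.837 of this library, so in normalised CPM it is higher.

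Named genes were the 2 largest differences in each direction among genes above or below both days, with at least 10 normalised CPM where higher and E19 libraries apart from all of E17 and E20; 1 gene qualified below. Conditions that need gene names could not be applied. Replicates of 1 day were compared in 56 pairs by a chi-square of counts, which was 2.76 to 11.5 per degree of freedom. Alternatives covered scaling, filter, samples, tool, replicate number and each library left out. The fit was run on simulated data with the same spread for all genes and as many rises as falls at E19. That check does not bear on the choice of scaling. The comparison, lists and tests were chosen with earlier results of these data known.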

Additional observations from a re-analysis of the deposited data

Results flagged for a closer look

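Of 45 sets of library values of 1 day that were checked for a single library far from the others, 4 held one, where chance gives about 1 in 20. ENSGALG00000028284.3 had 272 normalised CPM in E19 replicate 2. ENSGALG00000044333.1 had 7.14 normalised CPM in E20 replicate 4, from 8 counts. ENSGALG00000027874.2 had 172 normalised CPM in E21 replicate 1. In E17 replicate 2, 70 genes held 50% of the counts, the number nearest to that of E20 among the E17 libraries.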

How the results depend on the processing

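Scaling mattered most. With library totals, 1531 genes differed from the mean of E17 and E20 (171 higher, 1360 lower), 4 stood above and 209 below both days. Of those above, 3 were lower and 1 higher at E21 than at E15, and of those below 26 (12.4%) were lower, beside 22.2% lower and 35.6% higher over all genes tested. E19 then lay at 0.33 of the way. With totals without the 20 genes with the most counts, a setting chosen after seeing the data, 305 were higher and 684 lower, 23 above and 26 below both. Without the filter on low counts, 50 stood above both, 18 of them lower at E21 than E15, and 4 below. The gene below both was lost in the fit of 16 libraries (0 genes, 213 at an unadjusted p under 0.05 in edgeR), whereas the DESeq2 Wald test gave 6. The distance off the line was 0.82 with a prior count of 0.5 and 1.11 over the 500 genes with the largest spread. The main contrast gave E17 and E20 equal weight, although E20 is nearer to E19 in days. With the neighbours weighted by days, 1105 genes differed, 619 higher and 486 lower.

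No pairing of the samples by replicate number was seen: the deviations of 9 same-numbered pairs correlated between -0.07 and 0.027. Of the 9 E19 comparisons, 1 was best with its own number. These values do not show that the samples were unpaired. With a replicate block, 51 genes stood above both and 0 below (244 at an unadjusted p under 0.05, edgeR), 451 were higher and 264 lower, and the adjusted p of ENSGALG00000000377.5 was 0.0631.

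With single libraries left out, the genes that differed numbered 706 to 872 (439 to 540 higher, 257 to 355 lower). Those above both numbered 49, without E20 replicate 3, to 77, and those below 0 to 5. The difference in genes holding 50% of the counts ranged from -19 to -15.2 against E17 and from -33.5 to -30.8 against E20, with adjusted exact permutation p-values up to 0.0159. Libraries of 580768 counts limit what can be said of low genes.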
